A study of Mus musculus with 8 samples.

Results

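The genes described here are members of 13 families of developmental transcription factors (Hox, Fox, Pax, Lhx, Pou, Tbx, Irx, Dlx, Gata, Meis, Runx, Bhlhe and the family of Six3 and Six4) that were listed as the nearest gene of at least 1 Klf6 ChIP-seq peak. They were chosen by their symbol alone, at any listed distance within the range of the lists, which reaches 50 kb before and 5 kb past the transcription start site (TSS), and without regard to the height of the peak. This gave 15 genes of the 3888 with a listed peak, and 28 peaks of the 7855 listed. Klf6 occupancy was profiled in primary C57BL/6 mouse oligodendrocyte progenitors (OLP), grown with PDGF-AA at 10 ng/ml and bFGF at 20 ng/ml, and in immature oligodendrocytes (iOL) obtained from such cultures with T3 at 40 ng/ml for 18 h. Whether the growth factors stayed in the medium with T3 is not stated. A polyclonal anti-Klf6 antibody was used, with 2 biological replicates per stage, called A and B. The 4 ChIP samples are analysed here as lists of peaks called separately in each sample against input, and the 4 inputs are not analysed here on their own. The lists hold no expression values, so the identity of the cells rests on the labels and could not be checked against marker transcripts.

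These families encode proteins that bind DNA through a homeodomain, a paired domain, a forkhead, a T-box, a Runt domain, GATA zinc fingers or a basic helix-loop-helix. They assign position and cell type in the embryo. Hox genes, kept in clusters, pattern the body axis, while forkhead (Fox), paired-box (Pax) and sine oculis homeobox factors act in the forebrain, the sense organs, the skeleton and the muscle. Klf6 itself is a zinc finger factor of the Krüppel-like family, whose members bind CACCC and GC boxes.

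Across the 4 samples, 5 of the 15 genes had a listed peak in at least 2 samples, where 36.1% of all listed genes did. Those described here are Foxp2 (a forkhead factor of speech and motor circuits), Pax1 (a factor of the vertebral column and thymus), Hoxa13 (the most 5′ gene of the Hoxa cluster, active in distal limb) and Six4 (a factor of muscle and kidney development). The other 10 genes had a peak in 1 sample only. Peaks of different samples lying within 500 bp of each other were joined into 1 site, which reduced the 28 peaks to 20 sites, of which 6 were found in more than 1 sample.

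The DNA of the shared sites of Foxp2, Pax1, Hoxa13 and Six4 is shown because these are positions that were found again in another sample. Each line gives the stretch common to all peaks of the site, on the plus strand of mm9. Capitals mark the 32 bases that occur most often in the genome on either strand, since all 4 of these sites hold sequence with many genomic copies.

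Foxp2, chr6:14826751-14826915: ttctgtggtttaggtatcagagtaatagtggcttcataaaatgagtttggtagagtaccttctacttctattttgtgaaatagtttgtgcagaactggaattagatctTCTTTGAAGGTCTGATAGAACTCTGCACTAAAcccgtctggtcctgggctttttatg
Pax1, chr2:147174595-147174759: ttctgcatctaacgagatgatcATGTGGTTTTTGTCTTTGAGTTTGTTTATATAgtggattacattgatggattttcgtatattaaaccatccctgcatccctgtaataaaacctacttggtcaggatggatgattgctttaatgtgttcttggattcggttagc
Hoxa13, chr6:52229397-52229540: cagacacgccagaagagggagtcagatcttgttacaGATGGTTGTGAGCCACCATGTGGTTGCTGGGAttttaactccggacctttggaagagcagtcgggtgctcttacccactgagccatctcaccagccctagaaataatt
Six4, chr12:74254000-74254076: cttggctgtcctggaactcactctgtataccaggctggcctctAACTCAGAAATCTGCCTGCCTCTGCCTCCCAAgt

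The capitals occur 14096 times in the genome for the Foxp2 site, 14722 times for the Pax1 site, 27339 times for the Hoxa13 site and 10353 times for the Six4 site. For contrast, the 1 peak of these families within 2 kb of a TSS, that of Hoxa4, is shown next, with the peak of Runx2, a factor of bone formation. Neither contains 32 bases that occur anywhere else in the genome, so no letter is in capitals.

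Hoxa4, chr6:52143585-52143729: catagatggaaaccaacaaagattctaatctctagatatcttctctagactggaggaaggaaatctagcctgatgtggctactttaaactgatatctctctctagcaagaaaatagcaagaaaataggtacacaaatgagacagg
Runx2, chr17:44957266-44957414: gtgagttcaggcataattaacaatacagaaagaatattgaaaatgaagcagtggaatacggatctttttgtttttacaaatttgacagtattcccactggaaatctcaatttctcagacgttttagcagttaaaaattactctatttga

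The lists differed in size between samples. They held 5777 to 12451 peaks with 105081 to 152149 tags (sequenced fragments) in all, of which 1242 to 2744 peaks had a gene listed in range. The total of aligned reads behind each list is not given in the sources used here, and tag counts were not scaled between samples, so the heights of peaks are given per sample and were not tested between stages. A peak missing from a list was not called in that sample, which does not show that Klf6 was absent there.

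Foxp2 had the largest number of sites. The site at -24.6 kb was called in OLP B with 17 tags and 16.89-fold and in iOL A with 11 tags and 22.33-fold. In iOL B a peak with 12 tags and 10.57-fold lay 1.1 kb farther upstream, so Foxp2 was listed in both iOL replicates through different positions. Both remaining peaks were found in OLP B alone. One at -5.0 kb had 20 tags, the largest number among the peaks of these families together with the iOL B peak of Hoxa13, at 6.76-fold, and one at -9.0 kb of an alternative start, within an intron of Foxp2, had 12 tags at 7.55-fold. In OLP A no peak was listed for Foxp2.

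Pax1 had 1 site, at about -16.0 kb of the listed start and -13.0 kb of the GENCODE start, in 3 samples. It gave 17 tags and 29.17-fold in OLP A, 18 tags and 37.22-fold in iOL A and 13 tags and 11.06-fold in iOL B. In OLP A and iOL A these were the largest fold values of any family member. In OLP B the nearest peak was 205.0 kb away, so the site was found in 1 of the 2 OLP replicates and in both iOL replicates.

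Hoxa13 was the only member listed in both OLP replicates, and it was listed there through different peaks. In OLP A the site at -18.6 kb, between Hoxa13 and Evx1, had 16 tags, 28.89-fold and the highest score of the 28 peaks (129.55, where the score is 10 times -log10 of the peak caller's p). The same site was called in iOL B with 20 tags and 13.52-fold. In OLP B the peak lay 23.3 kb from that site, downstream of the Hoxa13 start at 5.0 kb, with 15 tags at 6.47-fold. Hoxa4, a gene of cervical patterning, was the other Hox member, with 1 peak in iOL B at -1.9 kb, inside introns of Hoxa3 and of 2700086A05Rik. This peak had 10 tags, a 7.40-fold enrichment and the only false discovery rate (FDR) above 5% among the 28 peaks, at 6.22%. Of 11 Hoxa genes 2 were listed, against 0 of 10 Hoxb, 0 of 9 Hoxc and 0 of 9 Hoxd genes, where 14.7% of all RefSeq genes were. The clusters were not tested against each other.

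Six4 was called at -39.8 kb in OLP A with 7 tags and 15.03-fold and in iOL A with 7 tags and 13.37-fold. This site lies in an intron of Mnat1, and the start of Mnat1, at 29.3 kb, is nearer than that of Six4. Six3, a factor of the anterior forebrain and eye, had 1 peak in iOL A with 7 tags at 9.92-fold, within an intron of Six3os1. Its distance was -16.8 kb in the deposited list and -9.6 kb by the GENCODE start.

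The 10 members with a peak in 1 sample ranged from 5.90-fold to 15.77-fold. In OLP B these were Foxd4 (neural ectoderm; 13 tags, 7.55-fold, -38.4 kb), Foxr2 (a forkhead factor activated in some brain tumors; 16 tags, 15.77-fold, -6.7 kb), Runx2 (11 tags, 6.75-fold, -5.6 kb) and Tbx18 (somites and ureter; 9 tags, 5.90-fold, -26.7 kb). OLP A added Tbx22 (palate; 9 tags, 14.58-fold, -26.6 kb). In iOL A these were Foxl2 (ovary; 7 tags, 12.41-fold, -40.5 kb) and Foxo6 (a brain-enriched FoxO factor; 7 tags, 12.41-fold, -48.3 kb) besides Six3. In iOL B they were Irx1 (heart and limb patterning; 11 tags, 6.14-fold, -44.0 kb) and Hoxa4. The Foxd4 peak lies in an intron of Cbwd1, whose start is nearer at 21.9 kb, and the Foxl2 peak lies nearer to 7420426K07Rik, at 11.9 kb. The Runx2 peak lies in an intron of Supt3h, though the nearest coding start is that of Runx2.

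**Figure D1:**
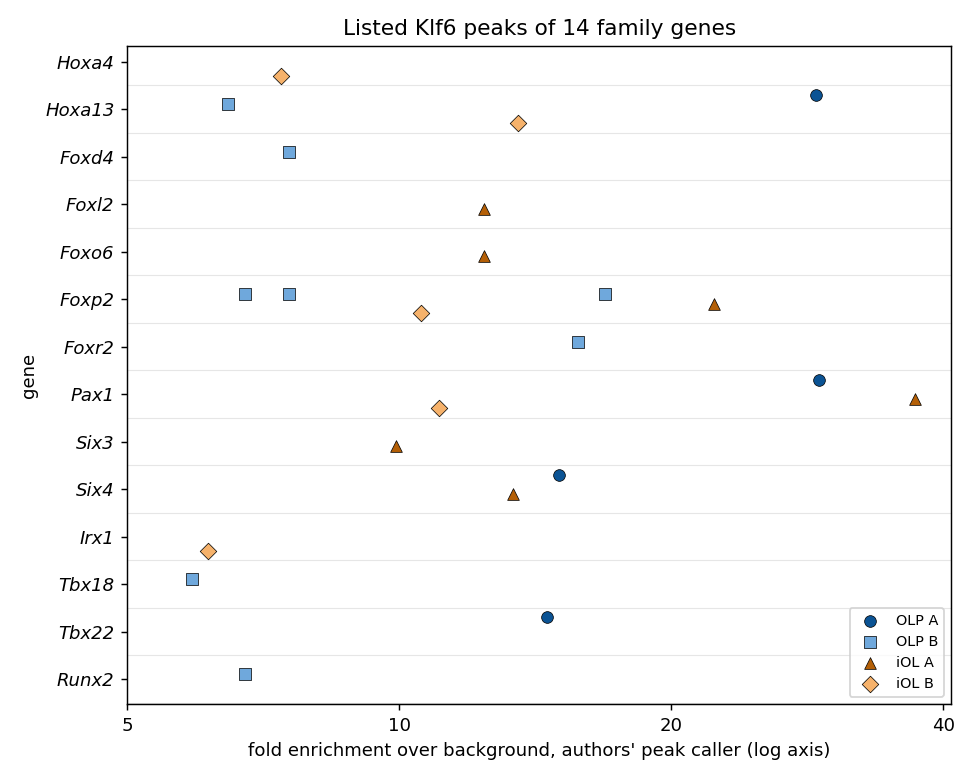
Each point is 1 listed Klf6 peak of 14 of the 15 genes; the horizontal log axis gives its fold enrichment over background, the vertical axis its gene, and color and shape the sample. Pax1 holds the largest fold among OLP A points, 29.17, and among iOL A points, 37.22. For OLP B the largest is 16.89 at Foxp2, and for iOL B it is 13.52 at Hoxa13. The lowest point, 5.90 at Tbx18, is from OLP B. Over all listed peaks the median fold is 14.58 (OLP A), 9.01 (OLP B), 14.89 (iOL A) and 10.57 (iOL B). Points of different samples are therefore not ranked against each other.

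The 14 peaks found again in another sample were higher than the 14 found once. Their median fold enrichment was 14.27 against 7.55, and their median score 76.59 against 46.22. Over all listed peaks the medians were 14.89 against 10.57 and 67.35 against 48, so the same order held for the 3595 shared and 4260 single peaks of the whole list. Samples differ in the share of each kind, and the difference at the family genes was not tested.

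The question the design addresses is whether Klf6 occupancy differs between OLP and iOL. At the family genes it was not distinguishable between stages. OLP A had 4 genes and 4 peaks, OLP B 7 genes and 10 peaks, iOL A 7 genes and 7 peaks and iOL B 6 genes and 7 peaks. The mean number of genes was 5.5 ± 2.12 (SD, n = 2) in OLP and 6.5 ± 0.707 (SD, n = 2) in iOL, with p = 1.0 in a two-sided exact permutation test over samples. The mean number of peaks was 7.0 in both stages, with an SD of 4.24 in OLP and 0 in iOL (n = 2 each, exact permutation p = 1.0). With 2 samples against 2 the smallest p this test can give is 0.33, and such p-values measure only the spread between these samples. Over all listed genes the means were 1750.0 in OLP and 1437.5 in iOL (n = 2 each, exact permutation p = 0.67). The OLP replicates differed most at these genes, since OLP A had the longest list but the fewest family peaks, 0.146% of its listed peaks, against 0.607% in OLP B, 0.315% in iOL A and 0.564% in iOL B.

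Members found in both replicates of a stage were counted beside all listed genes. In both OLP replicates 1 of 15 was listed (Hoxa13), where 17.3% of all listed genes were. In both iOL replicates 3 of 15 were listed, among them Foxp2 and Pax1, where 15.6% of all listed genes were. Beside the 5 of 15 with a peak in at least 2 samples, a peak in at least 3 was found for 4 of 15, among them Foxp2, Hoxa13 and Pax1, against 18.8%. With 15 genes the 95% Wilson intervals are wide, from 15.2 to 58.3% for the 5 of 15 and from 1.19 to 29.8% for the 1 of 15, and each contains the value for all genes. Intervals cover counting error only.

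By stage the members split evenly. Both stages held 5 of 15, among them Foxp2, Hoxa13, Pax1 and Six4, where 31.1% of all listed genes had a peak in both. This count, like that of genes in at least 2 samples, was 0 when only peaks up to 15 kb before the TSS were kept. Both were also 0 when peaks made mostly of sequence with other genomic copies were left out. These settings kept only 5 and 6 of the 15 genes, and the same counts over all listed genes were not made. Of all listed peaks found again in another sample, 95.2% were of such copied sequence. OLP alone held 5 (Foxd4, Foxr2, Runx2, Tbx18 and Tbx22), where the background was 41.6%, and iOL alone held 5 (Foxl2, Foxo6, Hoxa4, Irx1 and Six3), where it was 27.2%. Each of the 10 genes listed in 1 stage was listed in 1 replicate, so none of them was found in both replicates of its stage. Of all 3888 listed genes, 1405 had a peak in at least 2 samples and 1210 in both stages. Most recurring genes of the whole list were thus in both stages too. All 6 shared sites joined a peak of OLP with a peak of iOL, and the OLP replicates shared 0 sites with each other. Of all listed peaks, 20.9% in OLP A and 34.1% in OLP B had a peak of the other OLP replicate within 500 bp.

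Counted by peak, 14 of 28 had a peak of another sample within 500 bp, close to the 45.8% of all listed peaks. A peak of the other replicate of the same stage lay within 500 bp of 4 of 28 (14.3%, Wilson interval 5.7 to 31.5%), where the background was 28.9%. These 4 are the iOL A and iOL B peaks of 2 sites, among them that of Pax1. The interval counts both peaks of a site as separate and is too narrow.

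Most peaks of these genes lay upstream, as did most listed peaks. Their median distance was -25.2 kb, against -20.1 kb over all listed peaks, and 27 of 28 were upstream of the TSS, the exception being the OLP B peak of Hoxa13. Upstream peaks were 96.4% of the members and 93% of all listed peaks, in a range that reaches 50 kb before the TSS and 5 kb past it. The study itself compared only peaks from 15 kb before to 5 kb past the TSS. More than 15 kb upstream, outside that window, lay 22 of 28 (78.6%, Wilson interval 60.5 to 89.8%), where 61.2% of all listed peaks did. This interval, too, counts the peaks of 1 site as separate and is too narrow, since the 28 peaks lie at 20 sites. Within 2 kb of the TSS lay 1 of 28 (Hoxa4), where the background was 5.04%. At 18 of 28 peaks the family gene was the only gene in range, where 69.5% of all listed peaks had 1 gene in range.

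**Figure D2:**
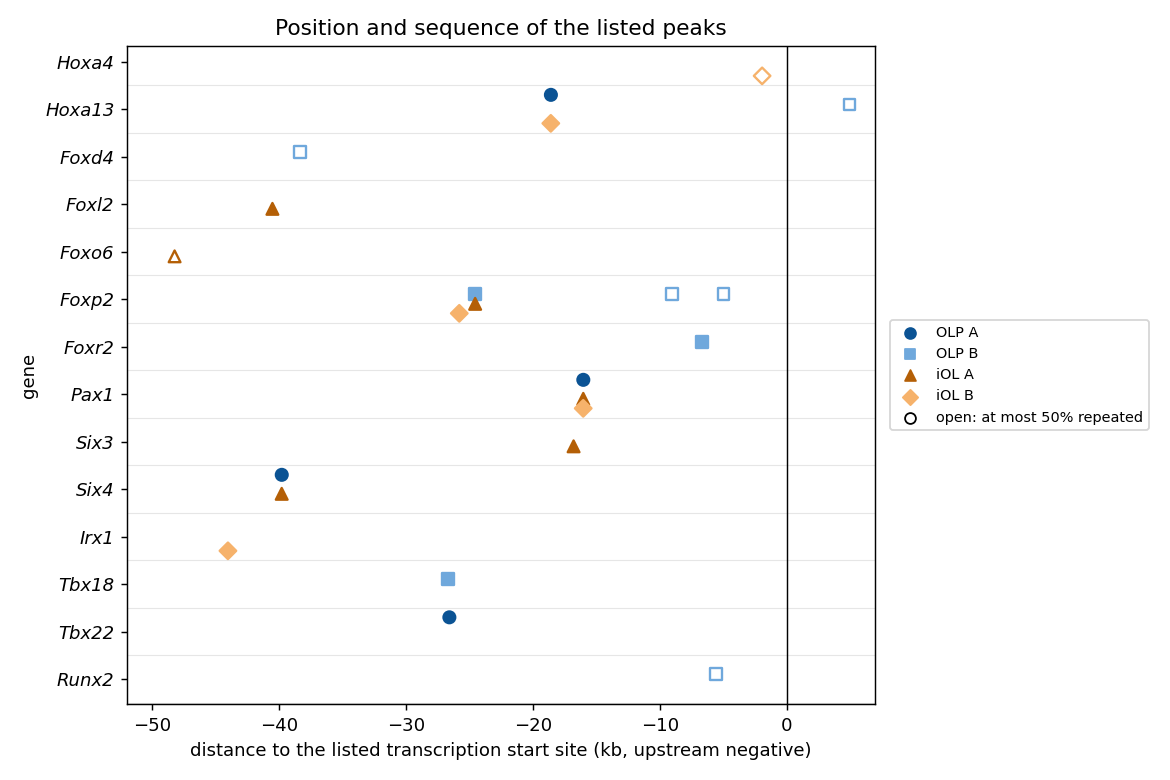
Each point is 1 listed peak of 14 of the 15 genes; the horizontal axis gives its distance in kb to the listed start site (negative upstream), the vertical axis its gene, color and shape the sample. Filled points are peaks of repeated sequence, and the 7 open points, among them Hoxa4 and Runx2, are the others.

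The number of genomic copies of each peak sequence, which the choice of members did not use, was counted next. A peak is called repeated here when over 50% of the 32-base words within it have further copies elsewhere in mm9. All 14 peaks shared between samples were repeated, against 7 of the 14 found once. The shared peaks of all listed genes were 95.2% repeated and the single ones 70.7%, so the order was the same in the whole list. Of the 28 member peaks 21 were repeated (75%), against 81.9% over all listed peaks. No stretch at all was repeated in 6 peaks, those of Foxd4, Foxo6, Hoxa4 and Runx2, the OLP B peak of Hoxa13 and the Foxp2 peak at -5.0 kb. Each of these was called in 1 sample, as were 931 of the 950 such peaks of the whole list. The 6 peaks were 21.4% of the member peaks, against 12.1% of all listed peaks, and among peaks called in 1 sample the shares were 42.9% and 21.9%.

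The copies were numerous. The most frequent 32 bases of the Six3 peak occurred 200497 times, those of the Foxr2 peak 23678 times, and those of the Irx1 peak 1269 times. Different genes also had peaks in related sequence. Among the 190 pairs of sites 2 aligned over at least 30 bases at 80% identity or more. In one of them the Pax1 site matched the Foxp2 site at -24.6 kb on the same strand at 35 of 37. How reads that align to several positions were placed is not given in the sources used here, and its part in these peaks was not tested.

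By sample, 4 of 4 member peaks were repeated in OLP A, 5 of 10 in OLP B, 6 of 7 in iOL A and 6 of 7 in iOL B. OLP B therefore held 5 of the 7 member peaks that were not repeated, and it also had the lowest share over all listed peaks, 68.8% against 81.2 to 87% in the other samples. Without the repeated peaks the members per sample were 0 in OLP A, 4 in OLP B, 1 in iOL A and 1 in iOL B.

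**Figure D3:**
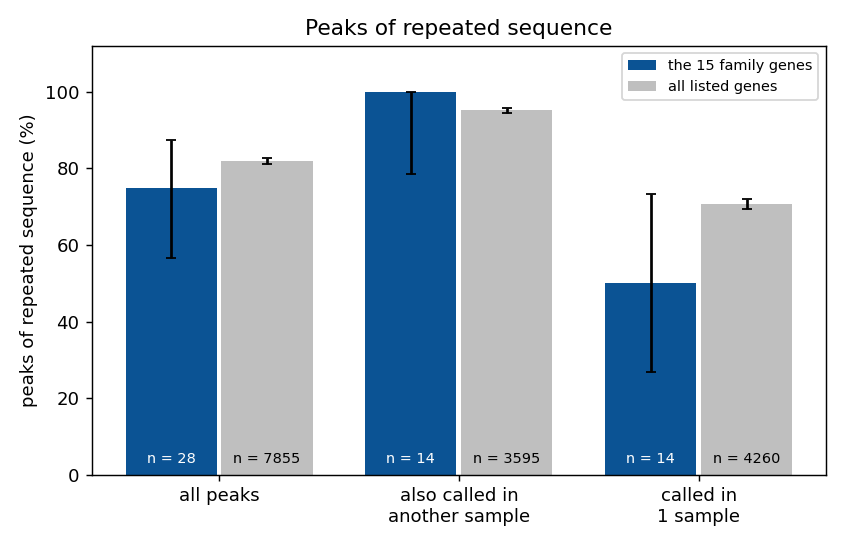
Bars give the percentage of peaks of repeated sequence for the 15 family genes (blue) and all listed genes (gray), with 95% Wilson intervals and the number of peaks in each bar. The share is 100% for the 14 member peaks also called in another sample and 50% for the 14 called in 1 sample. The former 14 peaks lie at 6 sites, and the intervals count peaks of 1 site as separate.

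The letters of 2 cores of Krüppel-like factor sites, CCACCC and CCGCCC, were searched on both strands. They were in 0 of 28 member peaks, and in 4.24% of all listed peaks. Within 100 bases of the summit they were again in 0 of 28, against 6.07%. The member peaks had a median GC content of 37.5%, from 18.2 to 54.5%, close to the 38.2% of all listed peaks.

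As a share of the families, 15 of the 162 family genes in RefSeq had a listed peak (9.26%, Wilson interval 5.69 to 14.7%), where 14.7% of all 26220 RefSeq genes did. The background lies at the upper end of this interval. Among protein-coding genes alone the background was 16.3%, above the interval, while the share of the families stayed at 9.26%. Having a listed peak is what made a gene a member, and the members were chosen with earlier results of these data known. The interval is therefore no test of a difference, and none was made. The Fox family held 6 of 44 genes, Hox 2 of 39, Tbx 2 of 13, Pax 1 of 9, Irx 1 of 6 and Runx 1 of 3, and both Six3 and Six4 are counted among 6 genes of their family. Lhx (8 genes), Pou (15), Dlx (6), Gata (6), Meis (3) and Bhlhe (4) had 0 genes with a listed peak. Among these are Pou3f factors, Lhx2 and Meis1, which act in neural progenitors. These counts use the nearest gene only. Meis1 was in range of an iOL B peak listed under another gene, and an OLP B peak lay within it.

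**Figure D4:**
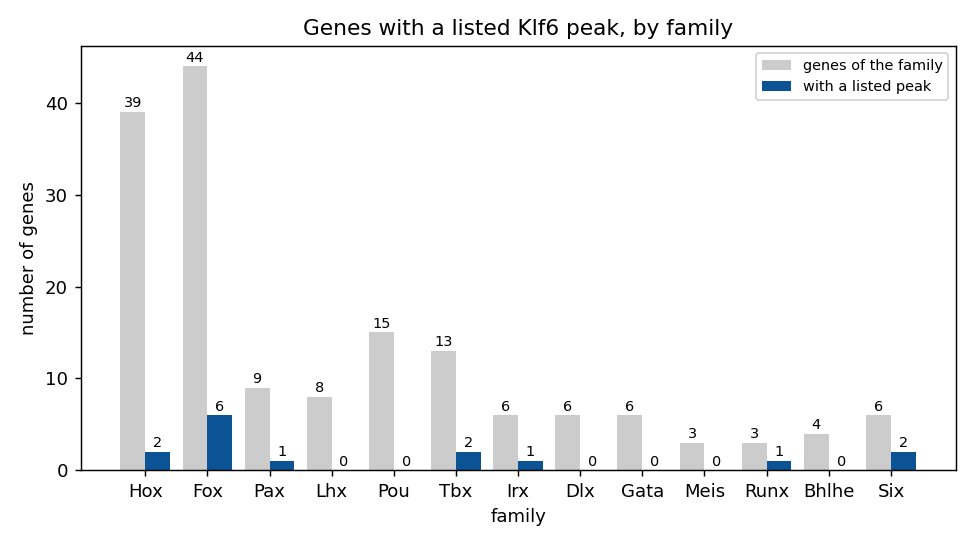
For each family the gray bar gives the number of genes in RefSeq and the blue bar the number with a listed Klf6 peak in any sample. Fox leads with 6 of 44, and 6 families stand at 0.

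The stretch of genome in which a gene could be listed was also compared. It was taken as every position up to 50 kb before or 5 kb past a GENCODE start with no nearer start in range. The family genes held 4.23 peaks per Mb of this range (29 peaks in 6.86 Mb), against 9.02 per Mb for all genes. In OLP A the values were 0.729 for the families and 3.12 for all genes, in OLP B 1.46 and 1.94, in iOL A 1.02 and 2.53, and in iOL B 1.02 and 1.43. The families were lower in 4 of 4 samples. Hox genes, with 4 peaks in 0.549 Mb, stood at 7.29 per Mb and the families without Hox at 3.96. The range of the families also held less repeated sequence, with 6.99% of sampled positions repeated against 13.8% for all genes. The part of this difference in the number of peaks was not tested.

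**Figure D5:**
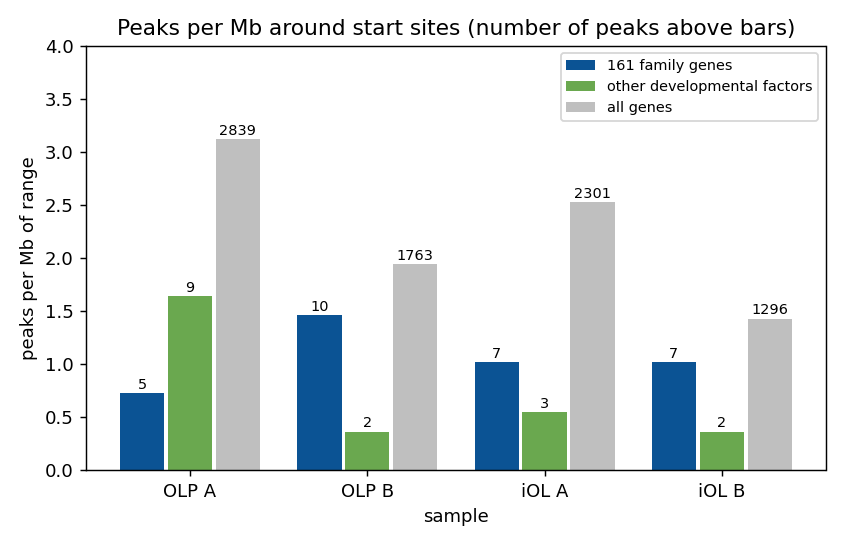
Bars give the peaks per Mb of range around start sites in each sample for the 161 annotated family genes (blue), other developmental factor families (green) and all genes (gray), with the number of peaks above each bar. The blue bar is lower than the gray bar in each of the 4 samples, with the smallest gap in iOL B, 1.02 against 1.43. The green bar is lower than the blue bar in OLP B, iOL A and iOL B and higher in OLP A.

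Of related genes, 10 of 119 members of other developmental factor families (8.4%) had a listed peak, and none of them in more than 1 sample. Of 35 transcription factors of the oligodendrocyte lineage 6 had one (17.1%). Egr1, an immediate early gene, was the only one of these in more than 1 sample. It was called near its start in OLP B, at -49 bp with 12 tags and 6.76-fold, and in iOL B, at -120 bp with 11 tags and 8.46-fold, and downstream of its start in both iOL replicates, at 4832 bp with 8 tags and 8.78-fold in iOL A and at 4606 bp with 11 tags and 8.46-fold in iOL B. Both lists were chosen with results of these data known, and no difference between them and the 15 genes was tested.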

How the data were processed

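Klf6 ChIP-seq was performed in 2 OLP and 2 iOL samples. By the study's methods, reads filtered by quality were aligned to mm9 with Bowtie2, peaks were called by MACS in each ChIP sample against input, and RefSeq genes were assigned. The MACS version is not given in the sources used here. Replicates were not pooled. The authors deposited, per peak, the count of tags (raw, not scaled), a score of 10 times the -log10 of its p-value, a fold enrichment (linear ratio over background) and an FDR in percent.

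Groups and replicate letters came from the labels. Genes were taken from the nearest-gene column of the deposited lists. The members and the gene lists were chosen with earlier results of these data known. Any member could be named, and values in every sample were given for members with a peak in at least 2 samples, a peak within 2 kb of the TSS, the 3 largest folds or most tags of a sample, and Hox members. Genes of other lists were named where they had a peak in at least 2 samples. Peaks at most 500 bp apart were joined. Stages were compared by exact permutation tests over samples, and shares were given with 95% Wilson intervals. Symbols of 3859 of 3888 listed genes matched RefSeq (GRCm38.p6, used for names only). The reference genome NCBIM37 is the same build as mm9, and 0 peaks extended past a chromosome end. The GENCODE annotation named the same gene for 92.5% of 6439 comparable peaks. Stretches of 32 bases were counted in the genome on both strands, and sites were aligned locally with a match scored 1, a mismatch -1 and a gap -2. For the range of the families the central 32 bases of each 100-base bin were counted, and for all genes those of every 100th bin. The overlap and the copy count were tested on simulated data, where they recovered what was planted. Software was Python 3.11.15 with scipy 1.17.1 and numpy 2.4.6 for tests, pandas 2.3.3 for tables, numba 0.67.0 for copy counts and matplotlib 3.10.9 for figures.

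The member peaks hold 7 to 20 tags, which leaves a large counting error on each. Alternatives covered the FDR, tags, score, window, symbol rule, gap, replicate block, left-out replicates and protein-coding genes. Counting every gene in range, leaving out repeated peaks, counting per Mb and 16-base stretches were chosen after seeing the data. A gene with a listed peak and a gene in range are counted in the totals but not reported here by name.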

Additional observations from a re-analysis of the deposited data

Results flagged for a closer look

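The lists also hold 12 peaks that lie inside genes of these families without being listed under a member, and the comparisons above do not use them. They were 4 in OLP A, 5 in OLP B, 3 in iOL A and 0 in iOL B, where a count of 0 allows up to 3. Foxp2 held 5 of them, Runx2 held 3, and Foxk1, Foxp1, Meis1 and Pax5 held 1 each. Foxp2 and Runx2 are long genes, of 540.6 kb and 318.8 kb, and the 4 lists hold 36280 peaks over the genome. How many peaks other stretches of such length hold was not counted, so these numbers do not set the 2 genes apart. Only the pair in Foxp2 at chr6:14883436-14883559 (iOL A, 7 tags, 14.89-fold) and chr6:14883457-14883536 (OLP B, 9 tags, 10.14-fold) was found in more than 1 sample. The largest fold was in Runx2 in OLP A, with 14 tags and 29.17-fold, and the most tags were in Runx2 in OLP B, with 19 tags and 7.88-fold. With the peaks listed under Foxp2, that gene held peaks in all 4 samples. No group of samples was large enough to look for a sample far from the others.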

How the results depend on the processing

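No alternative gave a difference between stages past the threshold, which the design cannot reach. The mean number of member genes was lower in OLP by 1, a difference of -1.0. It reversed to 1.5 in the window that the study compared, from 15 kb upstream to 5 kb downstream. In alternatives chosen after seeing the data, it reversed to 0.5 with every gene in range and to 1.0 without repeated peaks. Leaving out single replicates gave -2.5 to 0.5 for genes, the last without OLP A, and -3.0 to 3.0 for peaks. With the replicate block the difference was -1.0 for genes and 0.0 for peaks (exact sign-flip p = 1.0 each). What the letters stand for is not given, and no call changed with the block. Gene by gene, same-letter samples deviated from their stage means with r = 0.025 over 3888 listed genes. The lists as a whole did differ by letter. A lists held 12451 and 10225 peaks at a median of 14.58 and 14.89-fold over listed peaks. B lists held 7827 and 5777 at 9.01 and 10.57-fold. OLP A and iOL A shared 0.308 of the genes listed in either, the largest share for any pair of samples. The 15 genes became 9 with at least 10 tags, 9 with a score of at least 50, 5 in the narrow window, 24 with every gene in range and 6 without repeated peaks. In the narrow window and without repeated peaks, the numbers in at least 2 samples, in both OLP or both iOL replicates and in both stages were all 0. Counts over all listed genes were not made for these. Genes in both OLP replicates were 0 at the higher score and 3 with every gene in range. Peaks near one of the other replicate were 0% at the higher score. The share of family genes was 5.56% with at least 10 tags (all genes 8.87%), 3.09% in the narrow window (7.05%) and 14.8% with every gene in range (21.3%). The other 59 values under an alternative stayed within their limits. A member peak of 7 to 20 tags cannot show small differences.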

Other observations

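The Hoxa cluster holds many starts in a short distance, so the nearest gene is 1 of several. When every gene in range of a peak is counted, 9 more family genes are reached, among them Hoxa2 in iOL B, Hoxa3, Hoxa6, Hoxa7 and Hoxa9 in OLP B, Hoxa10 and Hoxa11 in OLP A, OLP B and iOL B, and Meis1 in iOL B. No peak of iOL A has a Hox gene in range. At 3 of the 20 sites, those of Six4, Foxd4 and Foxl2, the nearest annotated coding start belongs to a gene outside these families.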
